A study of Arabidopsis thaliana with 6 samples.

Results

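Nuclear genes for the photosystems, the electron carriers between them and the chloroplast ATP synthase were compared between the hb34 mutant and wild-type Arabidopsis thaliana. The set was taken from a fixed list of locus identifiers and holds 45 of the 38189 genes counted. It covers 15 light-harvesting genes, 10 subunits of photosystem II, 12 of photosystem I, 6 carrier genes and 2 ATP synthase subunits. LHCB2.1 and LHCB2.2 are outside the list and are described with the related genes. RNA was sequenced from 3 libraries of the Columbia wild type (WT) and 3 of a mutant of HB34, a zinc finger homeodomain transcription factor. Both groups were 10-d-old plants on half-strength MS medium under 16 h light and 8 h dark at 22 °C, all labelled as mock-treated. The labels name the tissue as leaves, while the extraction protocol speaks of seedlings. The sources used here do not say what kind of allele the mutant carries, how many lines were used or how many plants went into a library. Nothing states that replicates came from separate cultures, so p-values measure the spread between these libraries, which may be technical.

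Photosynthetic electron flow starts in photosystem II, where light energy collected by LHCB antenna proteins drives water oxidation at a manganese cluster shielded by the PSBO, PSBP and PSBQ proteins. Electrons pass through the cytochrome b6f complex and plastocyanin to photosystem I, whose own antenna is built of LHCA proteins, and then through ferredoxin and ferredoxin-NADP reductase to NADPH. The proton gradient built on the way drives the ATP synthase. The reaction centre proteins are encoded in the plastid, and the antenna and many peripheral subunits are encoded in the nucleus. In leaves these nuclear genes are among the most strongly transcribed, and light, the clock and chloroplast signals are known to move them together. Plastid protein-coding genes were not analysed here.

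HB34 transcript was nearly lost in the mutant, at 1571, 1547 and 1821 counts in WT and 19, 43 and 23 counts in hb34 (log2 fold change, hb34 minus WT throughout, -5.90, SE 0.254, adjusted p = 0.000419). Libraries held 17562497 to 19670468 counts, and 17905 genes had enough counts to be tested with edgeR's quasi-likelihood test, p-values being adjusted over all of them by the Benjamini-Hochberg method. Levels are CPM, counts scaled to a common library size with TMM factors. All 7 leaf mesophyll markers were tested and 0 passed (an unadjusted p under 0.05 was reached by 1 upward and 2 downward). Their summed level was 50870 to 57347 CPM in WT and 50819 to 56360 CPM in hb34. Counts of all 14 root markers were too low for a test, their sum reached at most 0.358 CPM in WT and 0.308 CPM in hb34, and 7 of them, like all 5 seed storage markers, were at 0 in every library. The 7 markers of leaf epidermis, guard cells and phloem were tested and 0 passed (an unadjusted p under 0.05 was reached by 1 upward and 1 downward). With TMM factors taken without the photosynthesis genes of the list, 5320 of 17905 tested genes reached such a p in either direction. On the first principal component of all tested genes, which held 55.5% of the variance, hb34 replicate 2 lay at 82.1, apart from hb34 replicates 1 and 3 at 8.53 and 17.6 and from WT at -41.2 to -25.8. In bulk RNA, fewer photosynthetic cells and less transcript per cell cannot be told apart.

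The photosynthesis genes lay lower in hb34 almost throughout, by a small amount each. Of 44 tested, 40 had a negative log2 fold change (49.1% of all tested genes and 58.5% of those with a mean of at least 100 CPM did), and the median was -0.32, against 0.0117 over all tested genes. At an adjusted p under 0.05, 7 fell: LHCB1.4, LHCB3, PSBQ1, PSAH2, PETE2, FD2 and ATPD. The share called lower was 2.5% over all tested genes and 7.83% over the 1571 genes of at least 100 CPM, a level that every tested gene of the set reached, against 15.9% here. PSBX alone rose, where 3.77% of all tested genes and 4.52% of those of at least 100 CPM were called higher. Calls in either direction made up 6.27% of all tested genes. All 3 hb34 libraries lay below all 3 WT libraries for 26 genes, which held for 17.5% of all tested genes and 29.7% of those of at least 100 CPM. At an unadjusted p under 0.05, 26 were lower and 1 was higher. With TMM factors taken without the set these numbers were also 26 and 1, and 5320 of all 17905 tested genes had such a p in either direction. The 3 genes nearest to the threshold from outside were PSAN, LHCB2.3 and PSBO2, with adjusted p of 0.0501, 0.053 and 0.0539.

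The whole set took 16.13%, 17.02% and 15.48% of the counts of WT replicates 1 to 3, against 13.61%, 13.19% and 14.03% for hb34. The groups did not overlap, and the summed CPM in hb34 was 83.2% of that in WT. By function, the hb34 sum was lowest for the carriers, at 74.9% of WT, and highest for LHCB1 to LHCB3, at 87.1%. The LHCB1 to LHCB3 sum leaves out LHCB2.1 and LHCB2.2, which are outside the list, and so does not stand for all LHCII genes. Mean levels of those 2 genes rose from 4893 CPM in WT to 9284 CPM in hb34 and from 2691 to 4679 CPM. Photosystem II subunits stood at 84.9%, the LHCA genes at 82.3%, photosystem I subunits and LHCB4 to LHCB6 at 80.6% each, and the ATP synthase genes at 80.0%. Among single libraries, WT replicate 2 was the highest of all 6 for 29 of the tested genes and hb34 replicate 1 the lowest for 20. On a principal component of these genes alone, with 70.2% of their variance, the hb34 libraries lay between 0.857 and 1.55 and the WT libraries between -1.89 and -0.685, so that hb34 replicate 2 did not stand apart here.

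**Figure D1:**
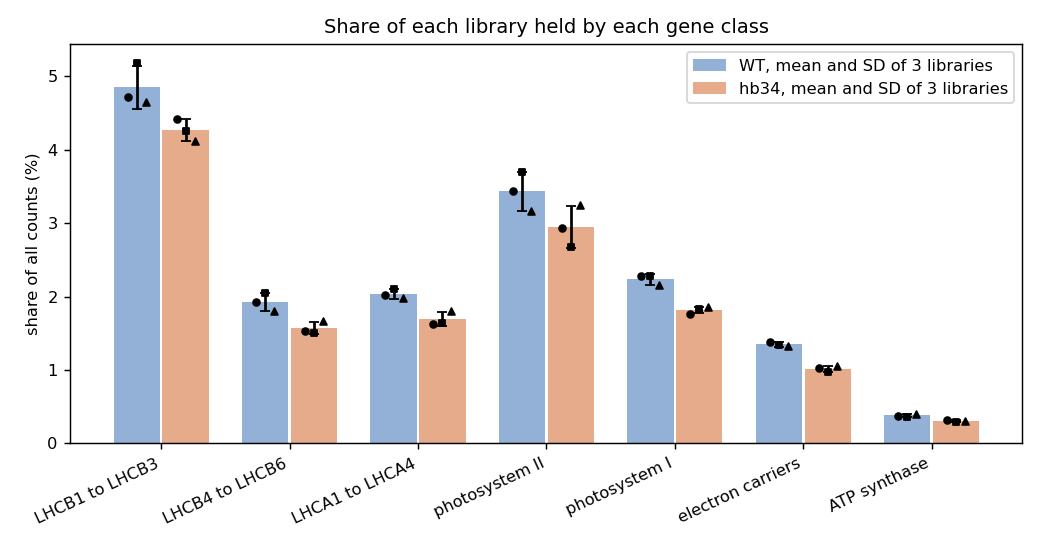
Share of all counts in a library (vertical axis, percent) held by each functional group of genes; bars are means of 3 libraries, error bars are SD, and points are libraries (circle replicate 1, square 2, triangle 3). Mean shares were smaller in hb34 in every group, from 1.35% to 1.02% on average for the electron carriers and from 4.85% to 4.26% for LHCB1 to LHCB3. The LHCB1 to LHCB3 group leaves out LHCB2.1 and LHCB2.2, which are outside the list and were higher in hb34.

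**Figure D2:**
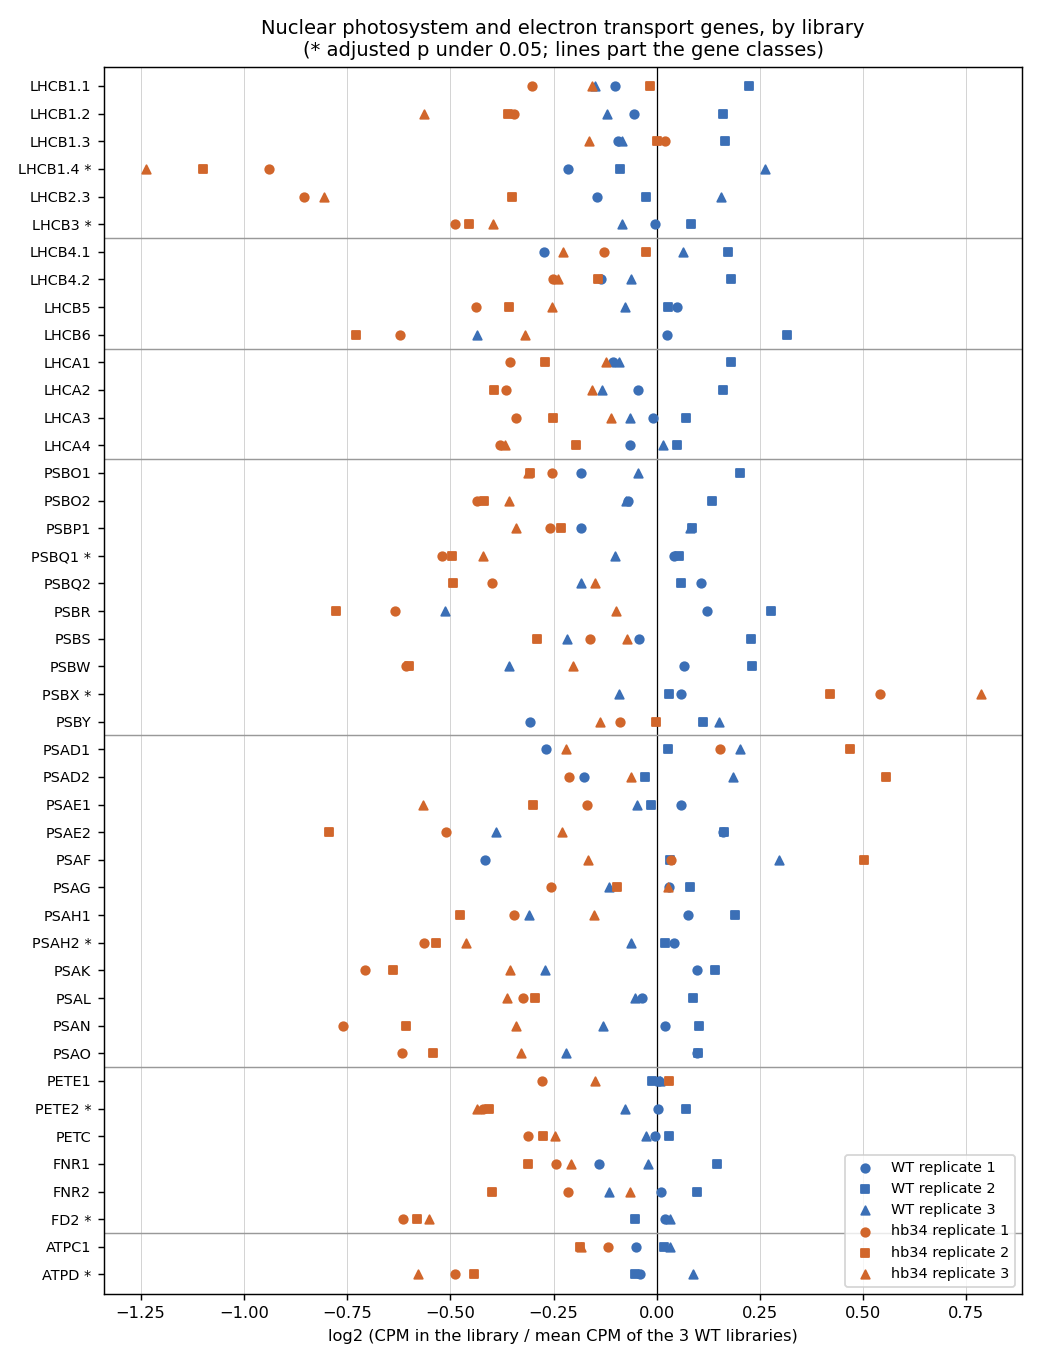
Each library's level of the 44 tested genes as the log2 ratio to the mean of the 3 WT libraries (horizontal axis); colour gives the genotype and shape the replicate, and an asterisk marks an adjusted p under 0.05. Most hb34 points lie left of 0, LHCB1.4 lies furthest left and PSBX lies to the right in all 3 hb34 libraries.

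The direction also went with gene length across the genome, and more weakly within this set. Over all tested genes the Spearman correlation of the log2 fold change with summed exon length was 0.46, and over those of at least 100 CPM it was 0.58. Over the 44 tested genes of the set it was 0.22. These describe genes that share the same 6 libraries. Photosynthesis genes are short, with a median of 1226.5 exon bases against 1734 over genes of at least 100 CPM. Of the 381 other genes of at least 100 CPM and 1000 to 1497 exon bases, 79% had a negative fold change, 12.1% were called lower, and the median was -0.24. The 26 genes of the set in that range, of 1018 to 1465 bases, had 92.3% negative, 15.4% called lower and a median of -0.32. Below 1000 bases the 180 others had 92.2% negative, 19.4% called lower and a median of -0.42. The 12 of the set there had a smaller share negative, 83.3%, with 3 called lower and a median of -0.48. With offsets that take out the length trend, chosen after seeing the data, 36 of 44 stayed negative with a median of -0.19, against -0.032 over all tested genes. LHCB1.4 was then the only one called lower (-0.98, adjusted p = 0.0317), and PSBX was still called higher (0.91, adjusted p = 0.0107). Over all 17884 genes tested with those offsets, 255 (1.43%) were called lower and 315 higher. What produces the length trend was not tested.

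**Figure D3:**
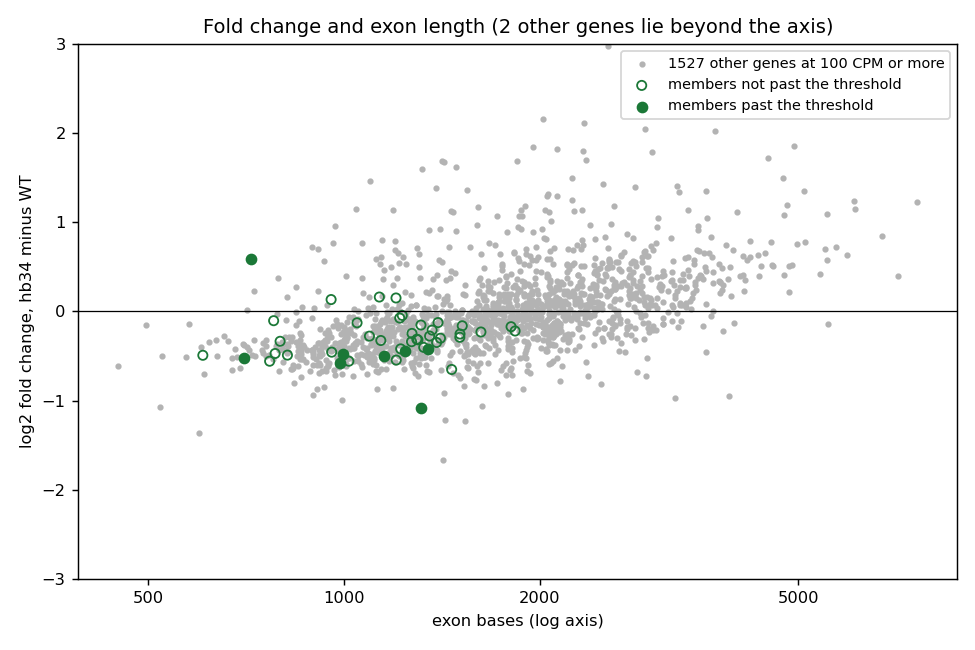
Log2 fold change (vertical axis, hb34 minus WT) against summed exon length in bases (horizontal log axis) for the genes of at least 100 CPM; green circles are the 44 photosynthesis genes, filled where past the threshold, and grey points are 1527 other genes. Short genes lie mostly below 0 whether or not they belong to photosynthesis, while PSBX, at 720 bases, lies above and LHCB1.4, at 1312 bases, below most genes of similar length.

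The calls also leaned on single libraries. Without WT replicate 1 or without WT replicate 2 none of the 44 was called in edgeR, although 20 and 17 were lower and 1 higher at an unadjusted p under 0.05, and the smallest adjusted p were 0.079 and 0.0792. In those fits 3 and 4 genes of the whole genome were called. An unadjusted p under 0.05 in either direction was reached there by 3347 of 18206 and 3488 of 18254 tested genes. Without WT replicate 3, 4 were called lower, and without hb34 replicates 1, 2 and 3 the number was 2, 5 and 3. Over all genes tested in those 4 fits, 1.47%, 1.29%, 2.77% and 0.632% were called lower. LHCB1.4 and FD2 were called in 4 of the 6 fits that left out a library, PSAH2 in 2 (without WT replicate 3 or hb34 replicate 2) and PSBQ1 (without WT replicate 3), ATPD and PSBX (both without hb34 replicate 2) in 1 each. LHCB3 and PETE2 were called in none, though their unadjusted p with all libraries was 0.0015 and 0.00169. DESeq2 on all 6 libraries called 15 lower and PSBX higher, where 5.56% of all its tested genes were lower. In limma-voom the set held 8 lower and PSBX higher, and 2.33% of all genes were lower. The median over the set ranged from -0.26 to -0.34 over the fits that left out 1 library.

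Trimeric LHCII, the main antenna of photosystem II, is built of LHCB1, LHCB2 and LHCB3 proteins. LHCB1 proteins come from 5 gene copies, of which LHCB1.4 alone passed the threshold. LHCB1.4 (gene-AT2G34430 in the files, chromosome 2, 14524607-14525918, plus strand, build TAIR10.1) had 1988, 2167 and 2764 CPM across WT replicates 1 to 3, against 1202, 1077 and 978 CPM across hb34 replicates 1 to 3. The hb34 libraries all lay below the WT libraries, and the mean fell to 47.1% of WT (log2 fold change -1.09, SE 0.149, adjusted p = 0.0147), the largest fall of the set. LHCB1.3, the most abundant copy, had 25006, 29931 and 25181 CPM across WT replicates 1 to 3, against 27095, 26715 and 23832 CPM across hb34 replicates 1 to 3. Its groups overlapped and its fold change was -0.045, SE 0.113, adjusted p = 0.811. LHCB1.1 had 6046, 7564 and 5841 CPM in the WT libraries against 5259.7, 6415 and 5815 CPM in the hb34 libraries, also overlapping (-0.15, SE 0.134, adjusted p = 0.465). LHCB1.2 had 4727, 5494 and 4524 CPM in the WT libraries against 3866, 3827 and 3323 CPM in the hb34 libraries, with all hb34 libraries below WT but an adjusted p of 0.0689 (fold change -0.42, SE 0.115). Differences between the copies' fold changes were not tested.

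LHCB1.5 had 0 counts in all 6 libraries and was not tested. All of its exon bases lie within exons of genes on the other strand, the protein-coding RWA3 (AT2G34410) and the non-coding AT2G08665. The same held for 345 protein-coding genes of the genome, of which 99.4% had no count in any library, against 24.1% of the 20771 with no such overlap. Its 0 is therefore given as a listed value and says nothing of its level. Smaller parts of other genes of the set lie within exons on the other strand: 61.4% of exon bases in PSAG, 53.3% in PSAH1, 40.6% in LHCB2.3, 34.1% in PSAE1, 24.8% in PSAH2, 20.4% in LHCB6, 14.98% in LHCB3, 12.7% in FNR1 and 10.4% in PSAE2. The shares were smaller in LHCB1.3, PSBR, PSBP1, LHCA4, PSAN and LHCB4.2. Levels of these genes are uncertain, since the strand setting of the counting is a point not given in the sources used here.

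The first 60 coding bases of the LHCB1 copies, read from the TAIR10.1 genome, show how close the copies are and where reads could tell them apart; capitals mark bases that differ from the commonest base of the 5 copies at that position.
LHCB1.1: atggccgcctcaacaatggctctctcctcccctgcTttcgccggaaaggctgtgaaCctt
LHCB1.2: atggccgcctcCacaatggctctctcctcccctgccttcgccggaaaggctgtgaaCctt
LHCB1.3: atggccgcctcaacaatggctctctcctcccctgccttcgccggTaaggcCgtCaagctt
LHCB1.4: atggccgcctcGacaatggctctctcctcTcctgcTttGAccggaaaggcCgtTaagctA
LHCB1.5: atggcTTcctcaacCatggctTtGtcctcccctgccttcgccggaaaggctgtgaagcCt
LHCB1.4 carries 8 such bases in this stretch and LHCB1.1 and LHCB1.2 carry 2 each. Over the whole coding sequence LHCB1.4 shared 86.8% of aligned positions with LHCB1.1 and LHCB1.3, 88.2% with LHCB1.2 and 91.4% with LHCB1.5, while LHCB1.1, LHCB1.2 and LHCB1.3 shared 95.6% to 96.4% with each other. No stretch of 150 bases was identical between any of them, and the longest identical run of LHCB1.4 was 122 bases, with LHCB1.5. The sources used here do not say how reads with several matches were counted. The split between LHCB1.1, LHCB1.2 and LHCB1.3 is less certain than that between them and LHCB1.4.

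LHCB3 (gene-AT5G54270 in the files, chromosome 5, 22038165-22039568, plus strand), the third kind of trimer subunit, had 7221, 7676 and 6837 CPM across WT replicates 1 to 3, against 5166, 5288 and 5498 CPM across hb34 replicates 1 to 3. The groups did not overlap, and LHCB3 fell to 73.4% of its WT mean (log2 fold change -0.45, SE 0.0925, adjusted p = 0.0378). LHCB2.3 had 1031, 1119.6 and 1269 CPM in the WT libraries against 631, 894 and 652 CPM in the hb34 libraries, lower in every hb34 library and nearest to WT in hb34 replicate 2 (-0.65, SE 0.158, adjusted p = 0.053). Both LHCB2 copies outside the list went the other way. LHCB2.1 had 4196, 5684 and 4799 CPM in the WT libraries against 8970.0, 9877 and 9006 CPM in the hb34 libraries and LHCB2.2 had 2361, 2979 and 2734 CPM in the WT libraries against 4155, 5336 and 4546 CPM in the hb34 libraries, and both rose (0.92, SE 0.129, adjusted p = 0.0157, and 0.80, SE 0.134, adjusted p = 0.0222). They lie at 1822990-1824480 and 1799234-1800472 on chromosome 2 (TAIR10.1), in a stretch where most genes were higher. Of the 247 genes tested over the first 2000000 bases of that chromosome, 153 were called higher and 0 lower, with a median of 0.95, against 0.0031 over the 17658 tested genes elsewhere. None of the 45 genes lies in that stretch. Per kilobase of exon, a scale that allows levels of different genes to be set side by side, LHCB1.3 stood at 21712 CPM per kb in WT and 21041 in hb34, and LHCB1.1 was next among the LHCB1 copies at 4934 and 4437. LHCB1.4 stood at 1758 CPM per kb in WT and 828 in hb34. LHCB2.3 was listed at 778 and 495, with no order drawn between them because of its overlap with exons on the other strand.

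**Figure D4:**
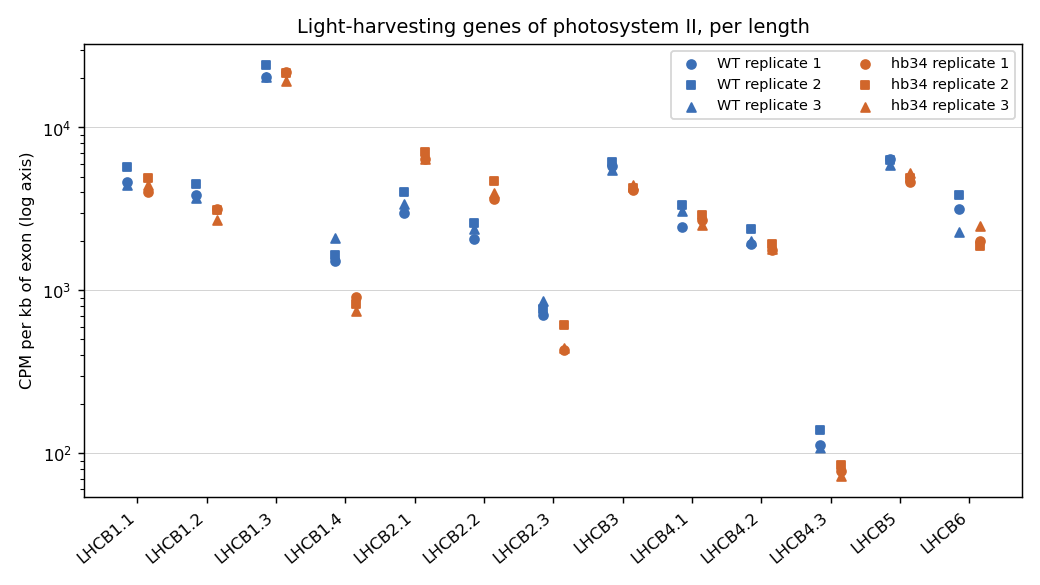
Levels of the LHCB genes with counts in CPM per kb of exon (vertical log axis) in each library; LHCB2.1, LHCB2.2 and LHCB4.3 are related genes outside the set. LHCB1.4 and LHCB3 lie lower and LHCB2.1 and LHCB2.2 higher in all 3 hb34 libraries, while LHCB1.3 and LHCB1.1 overlap between genotypes.

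The minor antenna proteins LHCB4, LHCB5 and LHCB6 sit as monomers between the trimers and the photosystem II core. None of their 4 genes passed the threshold, though all 4 fold changes were negative and the unadjusted p of LHCB5 and LHCB6 was 0.00728 and 0.0261. LHCB5 had 8959, 8819.9 and 8205 CPM across WT replicates 1 to 3, against 6395, 6754 and 7258 CPM across hb34 replicates 1 to 3, without overlap (-0.35, SE 0.0961, adjusted p = 0.0697). LHCB6 had 3799, 4647 and 2766 CPM in the WT libraries against 2427, 2254 and 2996 CPM in the hb34 libraries. WT replicate 3 of LHCB6 lay below hb34 replicate 3, and the fold change was -0.55, SE 0.198, adjusted p = 0.121. LHCB4.1 had 3409, 4641 and 4301 CPM in the WT libraries against 3768, 4040.0 and 3515 CPM in the hb34 libraries and LHCB4.2 had 2632, 3273 and 2767 CPM in the WT libraries against 2429, 2619.8 and 2449 CPM in the hb34 libraries. Fold changes were -0.13, SE 0.133, adjusted p = 0.55 for LHCB4.1, whose groups overlapped, and -0.21, SE 0.111, adjusted p = 0.245 for LHCB4.2, whose groups did not.

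The LHCA proteins form the antenna belt on one side of photosystem I. Their fold changes spanned the narrowest range of the functional groups: LHCA1, LHCA2, LHCA3 and LHCA4 were each lower in all 3 hb34 libraries than in any WT library, with values between -0.31 and -0.23, and none passed the threshold. LHCA4 had 8027, 8688 and 8485 CPM across WT replicates 1 to 3, against 6455, 7335 and 6505 CPM across hb34 replicates 1 to 3 (-0.31, SE 0.0973, adjusted p = 0.0892). LHCA2 had 4093, 4720.4 and 3853 CPM in the WT libraries against 3280.1, 3211 and 3789 CPM in the hb34 libraries (-0.30, SE 0.118, adjusted p = 0.14). Adjusted p for LHCA1 and LHCA3 was 0.206 and 0.172. DESeq2 called none of the 4 genes and limma-voom called none, while at an unadjusted p under 0.05 edgeR had LHCA2 and LHCA4 lower.

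Of the 10 photosystem II subunits, PSBQ1 fell and PSBX rose, while 8 did not pass, all with negative fold changes. PSBO, PSBP and PSBQ cap the manganese cluster on the lumen side. PSBQ1 (gene-AT4G21280 in the files, chromosome 4, 11334352-11335815, plus strand) had 2432, 2452 and 2202 CPM across WT replicates 1 to 3, against 1646, 1673 and 1763 CPM across hb34 replicates 1 to 3, at 71.7% of the WT mean (log2 fold change -0.48, SE 0.0933, adjusted p = 0.033). PSBQ2 had 3219.7, 3112 and 2631 CPM in the WT libraries against 2265, 2123 and 2691 CPM in the hb34 libraries, and WT replicate 3 lay below hb34 replicate 3 (-0.34, SE 0.129, adjusted p = 0.131). PSBO1, the major PSBO copy, had 6484, 8464 and 7129 CPM in the WT libraries against 6170.4, 5949 and 5929.8 CPM in the hb34 libraries (-0.29, SE 0.118, adjusted p = 0.149). PSBO2 had 1752, 2018 and 1746 CPM in the WT libraries against 1358, 1376 and 1434 CPM in the hb34 libraries, just outside the threshold (-0.40, SE 0.0989, adjusted p = 0.0539). Neither PSBO gene overlapped between genotypes, and nor did PSBP1, whose fold change was -0.28, SE 0.107, adjusted p = 0.138.

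PSBR, PSBW and PSBY are small subunits, and PSBS is the sensor for dissipating excess light as heat. PSBR had 5652, 6289.9 and 3642 CPM in the WT libraries against 3345, 3032 and 4854 CPM in the hb34 libraries. Both WT replicate 3 and hb34 replicate 3 departed from their groups, toward each other, and the fold change was -0.47, SE 0.243, adjusted p = 0.234. PSBW had 2578, 2889 and 1921 CPM in the WT libraries against 1616, 1625 and 2140.3 CPM in the hb34 libraries, with the same exchange of replicate 3 (-0.46, SE 0.18, adjusted p = 0.14). PSBS and PSBY overlapped between genotypes, with fold changes of -0.17 and -0.075 and adjusted p of 0.416 and 0.736. The exchange of replicate 3 ran through the set: across the 44 genes, the deviation of WT replicate 3 from the other WT libraries and that of hb34 replicate 3 from the other hb34 libraries had a Spearman correlation of -0.84, and of -0.57 over genes of at least 100 CPM. Both deviations went with exon length over all tested genes, with correlations of 0.47 and -0.29, and over the 44 genes these were 0.21 and -0.21. These are descriptions across genes of the same libraries.

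PSBX (gene-AT2G06520 in the files) is a small membrane subunit of photosystem II and was the one gene of the set that rose. It had 2717, 2662 and 2448 CPM across WT replicates 1 to 3, against 3797, 3489.8 and 4494 CPM across hb34 replicates 1 to 3. Every hb34 library lay above every WT library, and the mean was 151% of WT (log2 fold change 0.59, SE 0.119, adjusted p = 0.0355). Its gene lies at 2587729-2588448 on the minus strand of chromosome 2, and RPA1A and VPS2.1 flank it closely. RPA1A, a subunit gene of the single-strand DNA binding protein RPA, had 0.583, 0.297 and 1.28 CPM in the WT libraries against 2.74, 2.38 and 2.98 CPM in the hb34 libraries and rose (1.86, SE 0.416, adjusted p = 0.0446). Its counts were low, at 11, 5 and 25 in WT and 51, 45 and 58 in hb34. VPS2.1, which encodes a subunit of the ESCRT membrane-sorting machinery and lies upstream on the same strand, had 55.2, 48.9 and 47.1 CPM in the WT libraries against 83.1, 189 and 132 CPM in the hb34 libraries and rose (1.42, SE 0.273, adjusted p = 0.0324). Of the 10 nearest tested genes, 5 on each side, AT2G06950 also rose (0.76, SE 0.174, adjusted p = 0.0473), while 7 neighbours passed in neither direction. Between positions 2500001 and 3000000, 5 of 14 tested genes were called higher and 0 lower, a count that includes PSBX, RPA1A, VPS2.1 and AT2G06950. Between 2000001 and 2500000 the counts were 2 higher and 1 lower of 33, with a median of 0.032. Around LHCB1.4, 1 of the 10 nearest tested genes was called, AT2G34357 (1.09, SE 0.187, adjusted p = 0.0239).

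**Figure D5:**
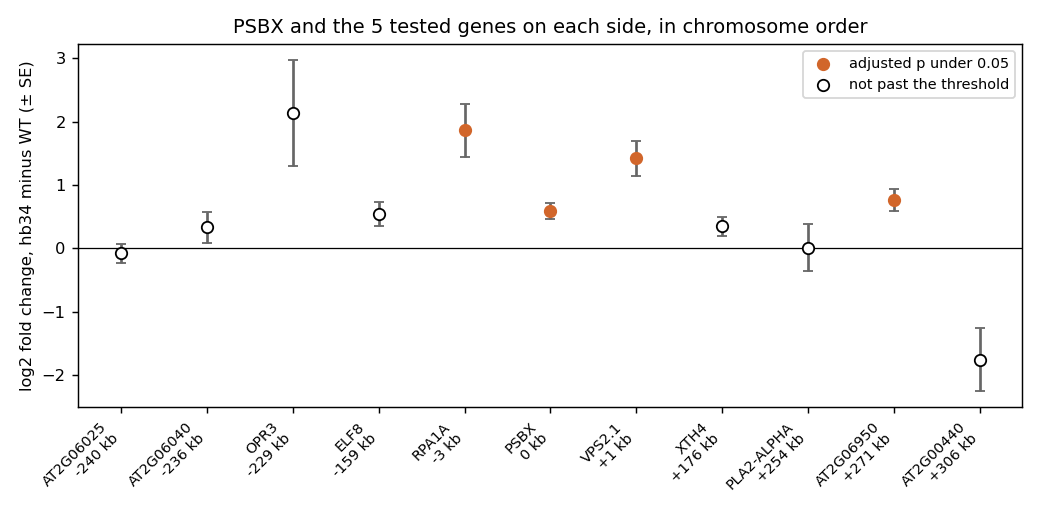
Log2 fold change with its SE (vertical axis) of PSBX and the 5 tested genes on each side in chromosome order, with the distance of each start from that of PSBX in kb under its name; filled points are past the threshold. RPA1A and VPS2.1 on either side of PSBX rose with it, RPA1A on low counts (5 to 25 in WT, 45 to 58 in hb34), and 7 of the 10 neighbours did not pass.

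In photosystem I, PSAH2 fell, 11 further subunit genes did not pass, and 3 had positive fold changes. PSAH, PSAL and PSAO form the side of photosystem I to which mobile LHCII binds. PSAH2 (gene-AT1G52230 in the files, chromosome 1, 19454798-19455668, plus strand) had 1473, 1453 and 1371 CPM across WT replicates 1 to 3, against 969.8, 988 and 1040.0 CPM across hb34 replicates 1 to 3, without overlap and at 69.8% of the WT mean (log2 fold change -0.52, SE 0.0896, adjusted p = 0.0247). Its copy PSAH1 had 831, 898 and 636 CPM in the WT libraries against 620.1, 567 and 709 CPM in the hb34 libraries, with WT replicate 3 inside the hb34 range (-0.32, SE 0.153, adjusted p = 0.207). PSAL and PSAO were both lower in every hb34 library, with fold changes of -0.33 and -0.49 and adjusted p of 0.0701 and 0.0632.

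PSAN and PSAF lie on the lumen side, where plastocyanin delivers its electron, and neither passed the threshold. PSAN had 3004, 3181 and 2707 CPM across WT replicates 1 to 3, against 1749.8, 1947 and 2339.7 CPM across hb34 replicates 1 to 3, all hb34 libraries lower (-0.56, SE 0.132, adjusted p = 0.0501). PSAF had 1606, 2191 and 2629.8 CPM across WT replicates 1 to 3, against 2193, 3033 and 1907 CPM across hb34 replicates 1 to 3, where hb34 replicate 2 was the highest of the 6 libraries (0.15, SE 0.223, adjusted p = 0.675). PSAD and PSAE form the ferredoxin docking site on the stroma side. PSAD1 had 1141, 1402 and 1582 CPM in the WT libraries against 1529.9, 1901 and 1181 CPM in the hb34 libraries and PSAD2 had 341, 377 and 437 CPM in the WT libraries against 332, 566 and 368 CPM in the hb34 libraries, again highest in hb34 replicate 2 (0.16, SE 0.193, adjusted p = 0.596, and 0.13, SE 0.208, adjusted p = 0.691). Without that library the fold changes of PSAD1, PSAD2 and PSAF were -0.019, -0.13 and -0.062, and 43 of 44 genes were then negative. PSAE1 had 1597, 1518 and 1484 CPM in the WT libraries against 1364, 1246 and 1035 CPM in the hb34 libraries, without overlap (-0.34, SE 0.121, adjusted p = 0.118), and PSAE2 had 690.0, 692 and 472 CPM in the WT libraries against 434, 356 and 527 CPM in the hb34 libraries, with overlap in replicate 3 (-0.49, SE 0.195, adjusted p = 0.143).

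PSAG and PSAK are membrane subunits at the edge of photosystem I. PSAK had 3187, 3287 and 2471 CPM in the WT libraries against 1827, 1915 and 2330.0 CPM in the hb34 libraries, all hb34 libraries lower (-0.56, SE 0.148, adjusted p = 0.0634), while PSAG had 608, 630.2 and 550.2 CPM in the WT libraries against 499, 557 and 607 CPM in the hb34 libraries and overlapped (-0.10, SE 0.112, adjusted p = 0.552).

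Both genes that fell among the 6 carriers were abundant forms. Ferredoxin takes electrons from photosystem I, and FD2 encodes the main leaf form. FD2 (gene-AT1G60950 in the files, chromosome 1, 22444307-22445291, plus strand) had 3993, 3791 and 4022 CPM across WT replicates 1 to 3, against 2568, 2631 and 2684 CPM across hb34 replicates 1 to 3. The 3 hb34 libraries lay within 2568 to 2684 CPM, far below the lowest WT library, and FD2 fell to 66.8% of WT (log2 fold change -0.58, SE 0.0867, adjusted p = 0.0171), with the second smallest p of the set. PETE2 (gene-AT1G20340 in the files, chromosome 1, 7042046-7043392, minus strand), the major plastocyanin gene, had 5966, 6251 and 5650.2 CPM across WT replicates 1 to 3, against 4452, 4493 and 4404 CPM across hb34 replicates 1 to 3 and fell to 74.7% (log2 fold change -0.42, SE 0.089, adjusted p = 0.0389). PETE1, the minor plastocyanin gene, had 152, 150.4 and 153 CPM in the WT libraries against 125, 155 and 137 CPM in the hb34 libraries, and hb34 replicate 2 was its highest library (-0.13, SE 0.111, adjusted p = 0.465). PETC, the Rieske iron-sulphur protein of the cytochrome b6f complex, was lower in every hb34 library but did not pass (-0.28, SE 0.0853, adjusted p = 0.0869). FNR1 and FNR2 encode the reductase that passes electrons to NADP. FNR1 had 1073, 1308 and 1163 CPM in the WT libraries against 998, 951 and 1023 CPM in the hb34 libraries, without overlap (-0.25, SE 0.106, adjusted p = 0.157), and FNR2 had 528, 561 and 484 CPM in the WT libraries against 451, 398 and 501 CPM in the hb34 libraries, where hb34 replicate 3 lay above WT replicate 3 (-0.22, SE 0.119, adjusted p = 0.252).

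ATPD (gene-AT4G09650 in the files, chromosome 4, 6100714-6101864, plus strand), the delta subunit of the ATP synthase, had 1851, 1836 and 2023 CPM across WT replicates 1 to 3, against 1356, 1401 and 1274 CPM across hb34 replicates 1 to 3 and fell to 70.6% of WT (log2 fold change -0.50, SE 0.0943, adjusted p = 0.0306). The gamma subunit gene ATPC1 had 1850.4, 1939 and 1960.2 CPM in the WT libraries against 1766, 1686 and 1689 CPM in the hb34 libraries, lower in every hb34 library by a smaller amount that did not pass (-0.16, SE 0.0868, adjusted p = 0.25).

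Ratios of the 8 pairs of copies, taken within each library and so free of scaling, mostly overlapped between genotypes. PETE1 and PETE2 formed the exception: the PETE1 to PETE2 count ratio was 0.0255, 0.0241 and 0.0270 in WT and 0.0281, 0.0345 and 0.0311 in hb34. The exact two-sided permutation p was 0.1, the smallest that 3 against 3 libraries allow, and 0.533 when adjusted over the 8 pairs. PSAH1 to PSAH2 ran from 0.464 to 0.618 in WT and from 0.574 to 0.682 in hb34. PSBO1 to PSBO2 ran from 3.70 to 4.19 in WT and from 4.13 to 4.54 in hb34. The pairs LHCB4.1 and LHCB4.2, PSBQ1 and PSBQ2, PSAD1 and PSAD2, PSAE1 and PSAE2, and FNR1 and FNR2 overlapped as well, with exact p from 0.3 to 0.9.

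Upstream sequences are shown for the 4 genes with the smallest p, LHCB1.4, FD2, PSAH2 and ATPD, and for PSBX, the latter chosen after its values were seen. Each run is read on the gene's strand, ends at the base before the annotated gene start, and holds up to 250 bases that lie in no other gene; capitals mark matches to the motifs searched.
LHCB1.4 (TAIR10.1 chr2:14524357-14524606, plus strand): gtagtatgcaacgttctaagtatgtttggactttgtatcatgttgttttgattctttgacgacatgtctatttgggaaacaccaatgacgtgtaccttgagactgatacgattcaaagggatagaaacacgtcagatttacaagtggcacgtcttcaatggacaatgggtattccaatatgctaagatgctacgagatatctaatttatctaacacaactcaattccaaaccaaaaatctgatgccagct
FD2 (chr1:22444057-22444306, plus strand): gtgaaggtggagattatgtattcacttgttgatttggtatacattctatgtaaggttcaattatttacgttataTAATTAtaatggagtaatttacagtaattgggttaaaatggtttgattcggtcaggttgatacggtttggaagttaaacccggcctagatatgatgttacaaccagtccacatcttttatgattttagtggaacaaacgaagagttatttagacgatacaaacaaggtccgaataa
PSAH2 (chr1:19454766-19454797, plus strand): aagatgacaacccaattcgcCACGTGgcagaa
ATPD (chr4:6100699-6100713, plus strand): ctcccccaaaaaacc
PSBX (chr2:2588449-2588522, minus strand): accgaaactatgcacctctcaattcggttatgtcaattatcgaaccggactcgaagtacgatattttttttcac
PSAH2 holds a G-box 12 bases before its start, FD2 holds a homeodomain core, and LHCB1.4 and PSBX hold no match in these runs. Only 74 bases part PSBX from VPS2.1, and 32 and 15 bases part PSAH2 and ATPD from the gene upstream.

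Motifs were counted on both strands in the 300 bases from 250 before to 50 after the gene start, in the 45 genes and in all 27443 protein-coding genes with such a window. The G-box CACGTG, bound by light-signalling bZIP and bHLH factors, lay in 33.3% of the set and 7.68% of all windows. The I-box, with the letters GATAAG, lay in 46.7% and 14.7%. CCAATC, a motif reported for GLK factors, lay in 35.6% and 12.3%. The homeodomain core TAATTA lay in 24.4% of the set and 31.1% of all windows, the evening element AAAATATCT in 2.22% and 2.81%, and TATAAA in 46.7% and 52.2%. LHCB1.4 held none of the 6 motifs in this window, PSBX held TATAAA alone, and PSBQ1, PSBQ2 and PSAH2 each held 2 G-boxes. These windows were not cut at neighbouring genes, and those of PSAH2, ATPD and PSBX, for example, reach into the gene upstream. For PSAH2, only the G-box 12 bases before the start lies in the 32 bases free of that gene. These are matches of letters and not measured binding.

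Other nuclear photosynthesis genes were listed by role. Of 32, 29 were tested, 22 were negative and the median was -0.30. LHCB2.1 and LHCB2.2 rose, as given above, and 5 fell. Over all tested genes 49.1% were negative, 3.77% were called higher and 2.5% lower. Among genes outside the set of at least 100 CPM, 12.1% of those of 1000 to 1497 exon bases were called lower. Below 1000 bases that share was 19.4%. With length-dependent offsets, chosen after seeing the data, both rises stayed called (1.00 and 0.97) and none of the 5 falls did, their adjusted p running from 0.06 for LHCB4.3 to 0.264 for CURT1C; PSBTN then stood at -0.37 and PSB28 at -0.32. PSBTN, a small lumen subunit of photosystem II, had 1673, 1726 and 1320.3 CPM in the WT libraries against 966, 909 and 1083 CPM in the hb34 libraries (-0.67, SE 0.133, adjusted p = 0.0336). PSB28, a photosystem II assembly protein, had 307, 315 and 302 CPM in the WT libraries against 233, 193 and 203 CPM in the hb34 libraries (-0.55, SE 0.107, adjusted p = 0.0324). LHCB4.3, a weakly expressed LHCB4 form, had 163, 199.9 and 156 CPM in the WT libraries against 112, 123 and 105 CPM in the hb34 libraries (-0.61, SE 0.132, adjusted p = 0.0411). FDC2, a ferredoxin-like protein, had 80.5, 82.5 and 66.7 CPM in the WT libraries against 53.0, 49.9 and 54.0 CPM in the hb34 libraries (-0.55, SE 0.122, adjusted p = 0.0444), and CURT1C, of the family that curves grana margins, had 366, 381 and 390.3 CPM in the WT libraries against 279.6, 285 and 242 CPM in the hb34 libraries (-0.50, SE 0.104, adjusted p = 0.0388). FDC1 and ATPC2 were at 0 in all libraries and NDHL nearly so, with their exons inside exons on the other strand like LHCB1.5. Cyclic electron flow gene PGRL1A, at -0.018 (SE 0.0873), and the antenna kinase gene STN7, at 0.16 (SE 0.106), did not pass.

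Of 18 regulators of these genes 17 were tested and 0 passed in edgeR, while an unadjusted p under 0.05 was reached by 3 upward and 3 downward. With TMM factors taken without the set, 5320 of all 17905 tested genes reached such a p in either direction. DESeq2 called 2 and limma-voom 0. Those with the smallest p were HY5, a light-signalling bZIP factor, with 111, 122 and 102 CPM in the WT libraries against 84.6, 47.7 and 77.7 CPM in the hb34 libraries (-0.67, SE 0.21, adjusted p = 0.0898), and the GATA factor GNL, with 115, 90.0 and 78.7 CPM in the WT libraries against 48.0, 9.45 and 38.7 CPM in the hb34 libraries (-1.56, SE 0.494, adjusted p = 0.092). Both had all hb34 libraries below WT and their lowest value in hb34 replicate 2. GLK1 and GLK2, activators of antenna genes, were at 0.35 (SE 0.149) and 0.16 (SE 0.142), on the positive side. ABI4 was at 0 in all libraries.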

How the data were processed

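Raw counts per gene, summed over exons per the file headers, were used as the authors deposited them, 1 table for each of 6 libraries. The submitters' processing notes list HISAT2 2.1.0, DESeq2 1.30.1 and TAIR10 with no roles. The counting program and its rules for strand and for reads with several matches were not given in the sources used here. Locus identifiers of all 45 genes were found in the RefSeq annotation of TAIR10.1, the source of names, coordinates and sequences. Their exons lay inside the same gene there, and exon boundaries were not compared. After filterByExpr (minimum count 10, minimum total 15) and TMM scaling, 17905 genes were tested two-sided in R 4.3.3 by edgeR 4.0.16 (glmQLFTest on glmQLFit, legacy FALSE, genotype only). Benjamini-Hochberg adjusted p-values used all of them and were read at 0.05. The method was tested on simulated counts, with no outcome reported here. Alternatives used DESeq2 1.42.0, limma 3.58.1, other scalings and filters, and each library left out. At these totals 3 counts were 0.153 to 0.178 CPM; such floors cover counting error only. No replicate files held identical values. Values per library are given for genes past the threshold, for the 2 smallest p of each functional group and for both copies of each pair; further ones were added after their values were seen. The genes and lists were chosen with earlier results of these data known.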

Additional observations from a re-analysis of the deposited data

How the results depend on the processing

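Over the alternatives run, the median of the set stayed negative, from -0.41 with upper quartile scaling to -0.19 with length-dependent offsets. Of 1277 single comparisons, 1082 were classed as unchanged and 19 changed sign. For ratios of copies, unchanged meant the same sign only, and for counts of calls it allowed some shift. Most genes compared were not called in the main fit. Out of 19 alternatives, LHCB1.4 was called in 16, FD2 in 14, and PSAH2 and PSBX in 12 each. PSBQ1 and ATPD were called in 11 each, and LHCB3 and PETE2 in 10 each. Counts of calls moved more. Upper quartile scaling, which put the median of all genes at -0.080, called 0 genes of the set higher and 11 lower. Over all 17905 genes tested with that scaling, 536 were called higher and 615 (3.43%) lower. The summed CPM of hb34 was then 78.1% of WT. DESeq2 called 15 lower in the set and 15 among the other photosynthesis genes and regulators (7 in edgeR); over all genes it called 1010 of 18173 lower, against 447 of 17905 in edgeR. Length-dependent offsets left 1 of the set lower and 2 of those others called, LHCB2.1 and LHCB2.2, both higher. With length- and GC-dependent offsets the numbers were 1 and 3, the third being LHCB4.3, lower. Of all 17884 tested genes, 255 (1.43%) were called lower with the former offsets and 279 (1.56%) with the latter. Both kinds of offsets were chosen after seeing the data.

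The main fit did not treat the replicate numbers as pairs. Same-numbered libraries deviated from their group means with correlations of -0.097, -0.11 and -0.26. Such values cannot show whether those libraries were grown or processed together. With the replicate block 0 genes of the set were called higher, 0 lower, and 0 of the others, with 17 lower and 1 higher of the set at an unadjusted p under 0.05. Over all 17905 genes tested with that block, 3928 had such a p in either direction. Leaving out 1 library gave 0 to 1 higher, 0 to 5 lower, 0 to 8 of the others, 1 to 3 separated pairs of copies and a summed CPM of 81.8% to 87.4%.

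Sign changes were of values near 0 and none of them was called. With length-dependent offsets LHCB1.3 went to 0.10, PSBY to 0.069, PSAG to 0.20 and PETE1 to 0.085; with length- and GC-dependent offsets these were 0.029, 0.024, 0.15 and 0.015. Leaving out 1 library moved LHCB1.3 between -0.083 and 0.052, PSBY between -0.20 and 0.019, PSAD1 between -0.019 and 0.32, PSAD2 between -0.13 and 0.28, and PSAF between -0.062 and 0.34. PSAD1, PSAD2 and PSAF were lowest without hb34 replicate 2, and PSAF was also negative (-0.013) without WT replicate 1. The difference in log2 ratio ran from -0.10 to 0.031 for FNR1 to FNR2, from -0.12 to 0.14 for PSAD1 to PSAD2 and from -0.020 to 0.40 for PSAE1 to PSAE2. The causes were not tested. Every tested gene of the set had a mean of at least 100 CPM, so counting error was small beside the level. It was not set against the spread between libraries, which could be narrow, as for PETE1 in WT (SD 1.16 CPM around 152 CPM).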
